A study of Rattus norvegicus with 12 samples.

Results

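The miRNAs described here are the mature products of miR-203a, miR-203b, miR-205 and miR-375 in aortas from female rats of the SHR strain, which is spontaneously hypertensive. They were chosen by name, with all arms that are listed, which gave 6 of 641 mature miRNAs: rno-miR-203a-3p, rno-miR-203a-5p, rno-miR-203b-3p, rno-miR-203b-5p, rno-miR-205 and rno-miR-375-3p, written below without the species prefix. Small RNA of 15 to 35 nt had been sequenced from 12 aorta samples, 6 of female SHR given saline (control) and 6 of female SHR under the treatment label EWH, which the labels do not spell out; the series title names peptides derived from egg white. The labels used here name no age, dose or length of treatment, nor whether each sample is 1 animal; p-values therefore reflect the variation among these 12 libraries, part of which may be technical. The question was whether these miRNAs differ between the groups, and in which libraries they are high.

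MicroRNAs are short RNAs that lower the output of mRNAs matching their seed, the bases from position 2 to 8. MiR-203a is best known from differentiating skin keratinocytes, where it restrains the progenitor factor p63, and miR-205 is known from stratified and glandular epithelia, where with the miR-200 family it represses the Zeb factors. MiR-375 is known from pancreatic islets, the pituitary and other secretory cells, where it modulates hormone release. None of them is counted among the typical miRNAs of vascular smooth muscle or endothelium, the main cells of the aortic wall.

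All 6 members were matched by name to mature sequences of RefSeq (assembly GRCr8), which are shown because their seeds and their shared locus bear on how the values can be read. They are written 5′ to 3′ with the seed in capitals.
miR-203a-3p: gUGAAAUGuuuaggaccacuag
miR-203a-5p: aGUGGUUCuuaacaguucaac
miR-203b-5p: aGUGGUCCuaaacauuucac
miR-203b-3p: uUGAACUGuuaagaaccacugg
miR-205: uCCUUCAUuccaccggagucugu
miR-375-3p: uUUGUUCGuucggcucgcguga
The 6 seeds differ from each other, and no other listed miRNA shares any of them (0 for each member). The nearest other listed sequence was at least 4 edits away (miR-203a-5p and miR-203b-5p from each other), and 8 edits away for miR-205 and for miR-375-3p.

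MiR-203a and miR-203b come from opposite strands of the same stretch of chromosome 6, between the genes Aspg and Kif26a. The hairpin gene Mir203 lies on the plus strand and Mir3545, the hairpin of miR-203b, on the minus strand, and they overlap over the whole 97 bases of Mir203. Its sequence is shown with the miR-203a-5p and miR-203a-3p arms in capitals, in that order.
Mir203 hairpin: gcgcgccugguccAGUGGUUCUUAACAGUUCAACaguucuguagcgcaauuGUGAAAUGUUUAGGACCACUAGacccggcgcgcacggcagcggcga
The reverse complement of miR-203b-5p is contained whole in miR-203a-3p, as positions 1 to 20 of its 22 bases, here in capitals.
miR-203a-3p: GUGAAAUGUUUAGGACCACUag
reverse complement of miR-203b-5p: GUGAAAUGUUUAGGACCACU
For the other pair of arms, 20 bases of miR-203a-5p, in capitals, are shared with the reverse complement of miR-203b-3p.
miR-203a-5p: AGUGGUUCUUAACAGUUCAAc
reverse complement of miR-203b-3p: ccAGUGGUUCUUAACAGUUCAA
A count without strand could not tell the arms of such a pair apart, and no strand setting is named in the sources used here. In control 1 the listed reads were 14091 for miR-203a-3p and 3258 for miR-203b-5p. For the other pair they were 185 for miR-203a-5p and 2418 for miR-203b-3p. The arms of a pair were thus not given the same count, and how strand was handled was not tested. Mir205 lies on the minus strand of chromosome 13 between Camk1g and an uncharacterised long noncoding gene, with no other gene over it. Mir375 lies on the minus strand of chromosome 9, overlapping the annotated spans of the crystallin gene Cryba2 and of an uncharacterised protein-coding gene. Its 5p arm is in RefSeq, and no value for it was analysed here.

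Each value is in rpm, reads scaled to the library's total, on library totals of 23887799 to 24772944 reads. A single read (1) equalled 0.0404 to 0.0419 rpm, and where a miRNA is listed at 0 up to 3 reads are allowed, or 0.121 to 0.126 rpm, which covers counting error only. Defining markers of the aortic wall were present: the smooth muscle miRNAs miR-143 and miR-145 (4 arms) summed to 331968 to 428677 rpm and the endothelial miR-126a (2 arms) to 3290 to 12305 rpm. In bulk tissue, fewer cells of a type and less RNA per cell cannot be told apart.

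Several libraries stood apart. Control 1 had the highest miR-203 values and the lowest miR-375-3p, EWH 3 and EWH 4 had the highest miR-205 and miR-375-3p, and controls 5 and 6 had the highest summed level of the epithelial miRNA list. Group differences of the members and of the epithelial list are therefore given with and without the libraries that touch them.

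MiR-203a-3p was the most abundant member, ranking 82nd of all listed miRNAs by mean. In control its values were 572, 34.7, 209, 33.6, 155 and 67.5 rpm (control 1 to 6), and in EWH they were 96.8, 172, 98.2, 112, 39.6 and 75.7 rpm (EWH 1 to 6). The highest and the lowest library were both controls, and all EWH libraries lay between them. The control mean was 179 ± 205.2 rpm and the EWH mean 99.0 ± 43.8 rpm (SD, n = 6 each), a difference smaller than the spread between the controls.

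Its passenger arm miR-203a-5p was low, from 0 to 185 reads, at 7.52, 0.501, 1.81, 0, 0.991 and 0.286 rpm in control and at 0.815, 1.37, 0.407, 0.659, 0.208 and 0.628 rpm in EWH. Control 1 was again highest, and control 4 was listed at 0, which allows up to 0.122 rpm. The 3p arm made up 98.6% (control 2; 95% Wilson interval 97.5% to 99.2%) to 100% (control 4; 99.5% to 100%) of the miR-203a reads of a library, so 1 arm dominated in each of the 12 libraries. This interval, like the others, covers counting error only, since the protocol names no molecular identifiers.

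The antisense miR-203b-5p followed the same libraries, at 132, 6.97, 42.8, 6.38, 26.4 and 12.1 rpm in control and at 18.7, 32.5, 20.3, 20.5, 7.14 and 14.1 rpm in EWH. The order of the 12 libraries was the same as for miR-203a-3p (Spearman's rho 1.0). MiR-203b-3p read 98.2, 3.47, 29.8, 2.72, 23.4 and 4.78 rpm in control and 13.0, 24.3, 11.3, 11.6, 3.90 and 8.25 rpm in EWH, with controls 1 and 3, EWH 2 and control 5 highest, as in the other miR-203 arms.

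**Figure D1:**
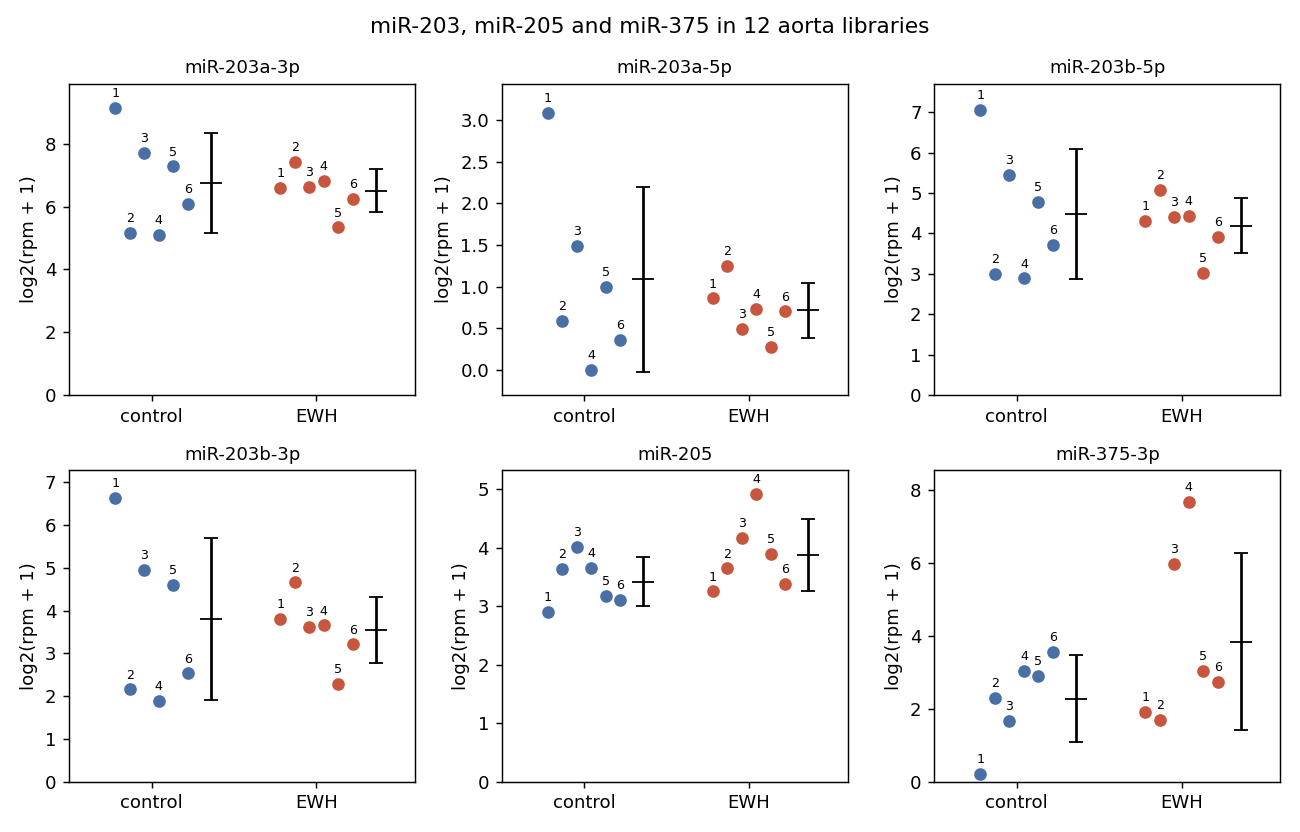
Each panel plots log2(rpm + 1) of 1 member (y axis) in the 6 control and 6 EWH libraries (x axis), with the replicate number above each point and the mean ± SD (n = 6) as a bar beside each group. Control 1 is highest in the 4 miR-203 panels, and EWH 3 and EWH 4 are highest in miR-205 and miR-375-3p.

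The antisense share of the miR-203 locus varied less than its level, but the share was not constant. Controls 1 and 3 and EWH 2, highest in summed level, were also highest in share (28.4%, 25.6% and 24.7%). The order was not strict, with 22.2% in EWH 4 at 144 rpm and 22.9% in control 2 at 45.6 rpm. A relation of share to level was not tested. The summed level of the 4 arms ran from 42.7 rpm (control 4) to 810 rpm (control 1), and miR-203b made up 19.9% (control 6; 95% Wilson interval 18.3% to 21.7%) to 28.4% (control 1; 27.8% to 29.1%) of the reads. The mean share was 23.7% ± 3.06 for control against 23.3% ± 1.31 for EWH (SD, n = 6 each; two-sided exact permutation p = 0.790, a test added after the values were seen). Of the reads of miR-203a-3p and its antisense partner miR-203b-5p, 14.5% to 18.8% were antisense. Within miR-203b the 3p arm held 28.3% (control 6) to 46.9% (control 5) of the reads, so neither antisense arm was a trace product as miR-203a-5p was.

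**Figure D2:**
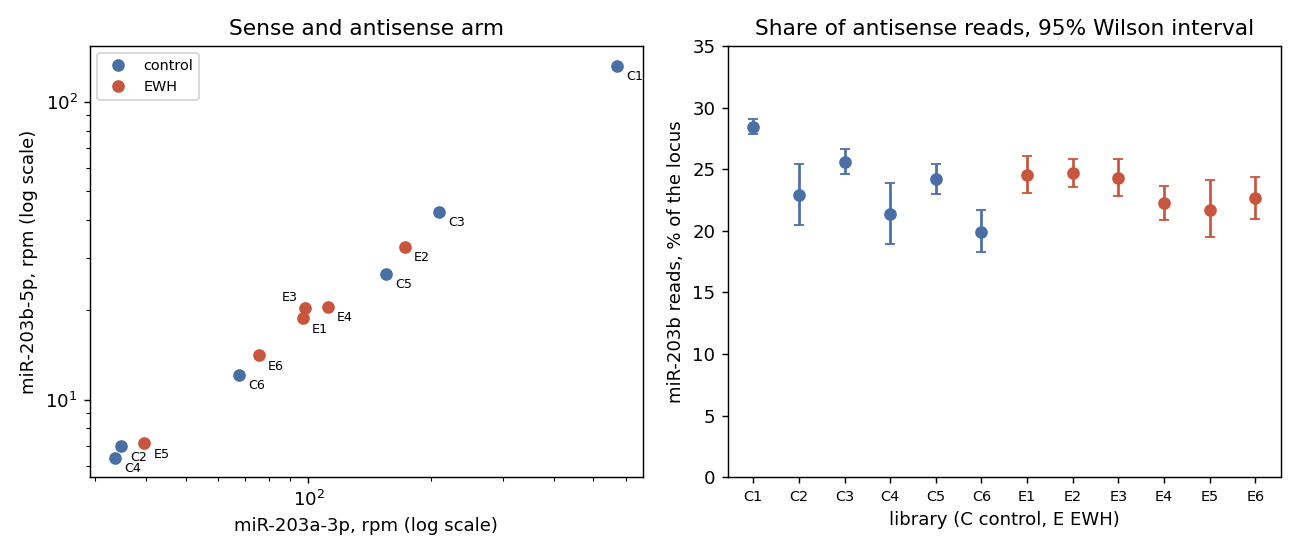
The left panel plots miR-203b-5p against miR-203a-3p in rpm on log axes, 1 point per library, and the right panel the share of miR-203b among all reads of the locus in each library with its 95% Wilson interval. The points of the left panel lie along a line from 33.6 to 572 rpm of miR-203a-3p, while the share stays between 19.9% and 28.4%.

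Across the 12 libraries, miR-203a-3p and miR-203b-5p had Pearson's r = 0.996 (permutation p = 1e-05, the smallest that 100000 permutations can give; Benjamini-Hochberg adjusted p = 3e-05 over 15 pairs of members). Spearman's permutation p was 1e-05, with adjusted p = 5e-05. Pearson's r was 0.994 without the libraries farthest from the median (controls 1 and 4), 0.996 within control and 0.996 within EWH. These arms share a locus and complementary sequence, so they are not separate observations of expression.

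MiR-205 was low and even by comparison. It read 6.50, 11.5, 15.1, 11.6, 8.05 and 7.60 rpm in control and 8.51, 11.5, 16.9, 29.2, 13.8 and 9.42 rpm in EWH. EWH 4 and EWH 3 were the highest of the 12, control 3 came next, and the other 4 EWH libraries lay inside the range of the controls. The control mean was 10.1 ± 3.25 rpm and the EWH mean 14.9 ± 7.65 rpm (SD, n = 6 each), or 10.8 ± 2.35 rpm in EWH without EWH 3 and EWH 4 (SD, n = 4).

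MiR-375-3p had the widest range of the members. It read 0.162 (4 reads), 3.93, 2.18, 7.20, 6.49 and 10.8 rpm in control and 2.77, 2.26, 62.0, 206, 7.23 and 5.74 rpm in EWH. EWH 4 (5006 reads) and EWH 3 (1525 reads) lay above all other libraries, and the other 4 EWH libraries lay inside the range of the controls. The control mean was 5.13 ± 3.83 rpm and the EWH mean 47.7 ± 81.0 rpm (SD, n = 6 each). Without EWH 3 and EWH 4 the EWH mean was 4.50 ± 2.38 rpm (SD, n = 4), and without EWH 4 alone it was 16.0 ± 25.8 rpm (SD, n = 5).

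Set beside the other miRNAs, the spread of the miR-203 and miR-375 products between libraries of the same group was large. The within-group SD of log2(rpm + 1) was 1.92 for miR-375-3p, the 2nd highest of 303 tested miRNAs, and 1.45 for miR-203b-3p, the 7th highest. It was 1.24 for miR-203b-5p, 1.23 for miR-203a-3p and 0.52 for miR-205, against a median of 0.33 over the tested miRNAs. The spread of miR-203a-3p was on the side of the controls (SD 1.59 in control, 0.69 in EWH), and that of miR-375-3p on the side of EWH (1.20 and 2.43), on the same log2 scale; the difference in spread was not tested.

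Of the 6 members, 5 had at least 1 rpm in at least 6 libraries and entered the test, and miR-203a-5p did not. None of the 5 was called by limma on log2(rpm + 1) at a Benjamini-Hochberg adjusted p under 0.05, where 0% of the 303 tested miRNAs were called. None had an unadjusted limma p under 0.05 either, where 23.1% of the tested did. Groups overlapped for all 6 members, against 1.65% of the tested miRNAs whose groups did not.

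MiR-375-3p had the widest interval, with a log2 fold change of 1.57 (SE 1.0, 95% interval −0.62 to 3.75; limma adjusted p = 0.398 with Benjamini-Hochberg adjustment; two-sided exact permutation p = 0.223). Of 6 EWH libraries, 4 lay above the control median and 2 above the highest control. Without EWH 3 and EWH 4 the log2 fold change was 0.07 (95% interval −1.24 to 1.38). On whole reads recovered from the values DESeq2 called 1 of the 5 members, miR-375-3p, higher in EWH at log2 3.08 (SE 1.01, Benjamini-Hochberg adjusted p = 0.0155), where 20.8% of the tested miRNAs were called and 15.2% were called higher. The DESeq2 adjusted p was 0.237 without EWH 4 and 0.926 without EWH 3 and EWH 4, where the log2 fold change was −0.15. EdgeR called 0 of the 5 members, where 13.2% of the tested miRNAs were called, 11.2% higher and 1.98% lower; miR-375-3p stood at log2 3.09 with edgeR's Benjamini-Hochberg adjusted p = 0.102. Adjusted p over all settings ran from 0.0155 to 0.953.

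MiR-205 had a log2 fold change of 0.46 (SE 0.29, 95% interval −0.17 to 1.08; limma adjusted p = 0.384 with Benjamini-Hochberg adjustment; exact permutation p = 0.162, two-sided). It was 0.12 (95% interval −0.40 to 0.65) without EWH 3 and EWH 4. Of 6 EWH libraries, 4 lay above the control median and 2 above the highest control, the same libraries as for miR-375-3p.

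The log2 fold change was −0.24 for miR-203a-3p (SE 0.64, 95% interval −1.64 to 1.16; limma adjusted p = 0.846 with Benjamini-Hochberg adjustment; exact permutation p = 0.747, two-sided). On recovered reads it was −0.74 by edgeR and −0.74 by DESeq2 (Benjamini-Hochberg adjusted p = 0.529 and 0.482). With limma it was 0.24 without control 1, so its sign rested on that library, and the control mean was then 100.02 ± 78.5 rpm (SD, n = 5) against 99.0 rpm in EWH. For miR-203b-5p it was −0.29 (95% interval −1.71 to 1.13) and for miR-203b-3p −0.25 (−1.91 to 1.40), with limma adjusted p of 0.808 and 0.859 (Benjamini-Hochberg). On recovered reads these were −0.89 and −1.03 by edgeR and by DESeq2, with Benjamini-Hochberg adjusted p from 0.416 to 0.488. The limma values too changed sign without control 1, to 0.23 and 0.31. MiR-203a-5p, outside the test, had a difference of mean log2 values of −0.37 (two-sided exact permutation p = 0.545), which was 0.03 without control 1. For miR-203a-3p, miR-203b-5p and miR-203b-3p the intervals leave room for differences of more than 2-fold either way, so equal levels were not shown.

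**Figure D3:**
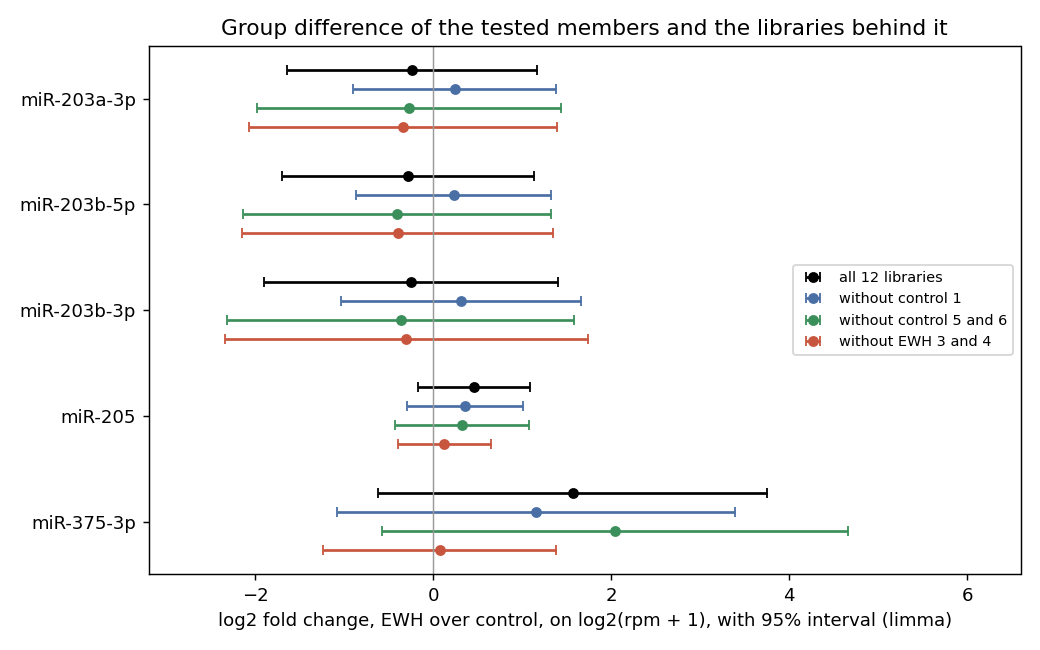
The points are limma log2 fold changes of EWH over control on the log2(rpm + 1) scale (x axis) with 95% intervals for the 5 tested members (y axis), from all 12 libraries and with named libraries left out. All intervals cover 0, the miR-203 values change sign without control 1, and miR-375-3p moves from 1.57 to 0.07 without EWH 3 and EWH 4.

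The label under which these miRNAs are grouped, epithelial and endocrine, was checked against lists of other miRNAs known from those cells. In the epithelial list (the miR-200, miR-183 and miR-192 families and others; 26 listed, 12 tested) none was called by limma, 11 tested members had lower and 1 a higher mean in EWH, and the median log2 fold change was −0.34, beside −0.06 over all tested miRNAs. On recovered reads edgeR called 13.2% of all tested miRNAs (1.98% lower) and DESeq2 20.8% (17 of 303 lower). The median log2 fold changes over all tested were −0.048 and −0.052. In the list edgeR called 2 of the 12 and DESeq2 3, all lower in EWH, with medians of −0.50 and −0.51. They were miR-200b-3p (log2 −4.14, adjusted p = 0.0331 by edgeR; −4.15, adjusted p = 0.000433 by DESeq2), miR-200a-3p (−2.43, 0.046 by edgeR; −2.44, 0.00315 by DESeq2) and, by DESeq2 alone, miR-200c-3p (−2.43, 0.00803), with Benjamini-Hochberg adjustment. Without controls 5 and 6 edgeR and limma each called 0 of the 11 then tested. EdgeR then called 0 of all 297 tested miRNAs, and limma had called none of the list with all 12 libraries. These counts of 0 therefore cannot show whether the edgeR calls rest on controls 5 and 6. The limma median was then −0.05, and 7 members had lower and 4 higher means in EWH. DESeq2 was not run without controls 5 and 6, so whether its calls depend on them was not tested. The summed level of the list was 201 to 1236 rpm in control, highest in control 6 and control 5 (587 rpm), and 172 to 251 rpm in EWH. The other 4 controls lay at 201 to 293 rpm. MiR-200b-3p, a repressor of Zeb factors, had a control mean of 125 ± 196 rpm against 6.87 ± 2.83 rpm for EWH, and its control values were 8.69, 4.47, 3.58, 58.6, 176 and 501 rpm, with controls 6 and 5 highest. For miR-192-5p the means were 138 ± 88.4 against 87.7 ± 13.5 rpm (SD, n = 6 each). MiR-182 stood at 15.7 ± 19.97 against 8.43 ± 3.59 rpm, and miR-31a-5p, at 30.7 ± 4.25 against 23.6 ± 4.47 rpm, was the more even between libraries (SD, n = 6 each).

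The epithelial list and the members had different highest libraries. In control 6, where the list summed to 1236 rpm, miR-203a-3p read 67.5 rpm and miR-205 7.60 rpm, both under their medians over the EWH group. The 2 libraries highest in the list, controls 6 and 5, and the 2 highest in miR-203a-3p, miR-205 or miR-375-3p had 0 libraries in common in each case. MiR-375-3p was nearer to the list, since control 6 was its highest control (10.8 rpm) and came next after EWH 4 and EWH 3, and control 5 was among the 4 highest libraries of miR-203a-3p. Of the 4 highest libraries, the list shared 1 with miR-203a-3p, 1 with miR-375-3p and 0 with miR-205. Over the 12 libraries Spearman's rho with the summed list was −0.601 for miR-203a-3p, −0.301 for miR-205 and 0.517 for miR-375-3p. Pearson's r was −0.213, −0.382 and 0.121 in the same order, given as a description without a test. No single pattern joined the members to the list, and the 6 are called by their names here.

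The adipocyte list, miRNAs known from fat cells, was high in the same libraries as miR-203. Its summed level in control was 1631, 123, 610, 121, 533 and 163 rpm and in EWH 269, 448, 172, 226, 135 and 201 rpm. In controls 1, 2 and 3 most of this sum was a single miRNA, miR-378a-3p, whose values are given below. The 4 highest libraries (controls 1, 3 and 5 and EWH 2) were the 4 highest of miR-203a-3p. Across the 12 libraries the summed list had Pearson's r = 0.963 and Spearman's rho = 0.958 with miR-203a-3p on the log2(rpm + 1) scale, and r = 0.931 without control 1, given as a description without a test. Of its 7 listed arms 4 were tested (miR-378a-3p, miR-378a-5p, miR-193a-5p and miR-365-3p), all with lower means in EWH and none called by limma, edgeR or DESeq2, with a limma median log2 fold change of −0.54, which was −0.06 without control 1. MiR-193b-3p and miR-365-5p were listed at 0 in every control library. The part of fat or of any other tissue in the miR-203 values was not tested.

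By Pearson's r of log2(rpm + 1) over the 12 libraries, the miRNA outside the locus most like miR-203a-3p was miR-3557-5p at r = 0.973, a far more abundant miRNA with a control mean of 3873 ± 4952 rpm against 1579 ± 883 rpm for EWH (SD, n = 6 each). It was also the nearest one outside the locus to miR-203b-3p (r = 0.984) and miR-203b-5p (r = 0.971). MiR-378a-3p, encoded within the gene for the mitochondrial coactivator PGC-1beta, came next for miR-203a-3p at r = 0.967 (named after its value was seen). It read 1321 rpm in control 1 and 76.4 (control 2) to 489 rpm (control 3) in the other libraries. It is a member of the adipocyte list, which summed to 1631 rpm in control 1. The r of miR-378a-3p and that of the summed list are therefore not separate observations. All these values share libraries and the per-million scale, and control 1 weighs on each; without it r was 0.95 for miR-3557-5p and 0.938 for miR-378a-3p. The endothelial miR-126a arms also summed highest in control 1, at 12305 rpm, with r = 0.871 to miR-203a-3p and 0.746 without control 1. Of the other lists, the summed level was 80.4 to 385 rpm for erythrocyte and 136 to 304.9 rpm for leukocyte markers. It was 429 to 1439 rpm for skeletal and cardiac muscle and 37.4 to 1006 rpm for hepatocyte markers. With miR-203a-3p these sums had r = −0.771, 0.527, −0.007 and −0.527 in the same order. Without control 1 these r were −0.653, 0.263, 0.205 and −0.196.

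**Figure D4:**
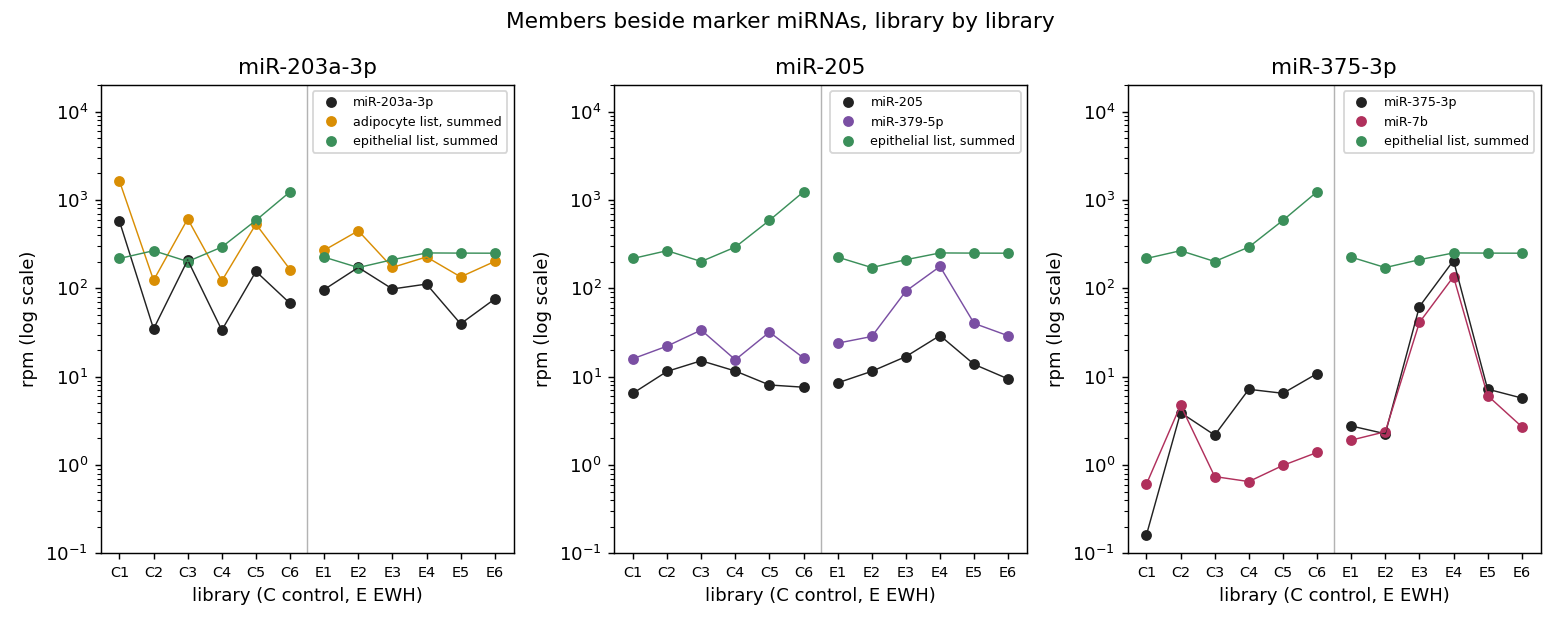
Each panel plots rpm on a log axis (y) in the 12 libraries (x; C control, E EWH) for miR-203a-3p, miR-205 or miR-375-3p beside marker miRNAs, with thin lines only to guide the eye. MiR-203a-3p follows the summed adipocyte list, miR-375-3p and miR-7b peak together in EWH 3 and EWH 4, and the summed epithelial list peaks in control 6 at 1236 rpm.

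MiR-375-3p was placed beside the endocrine and pancreatic list (15 listed, 6 tested). None of the 6 was called by limma, 3 had higher and 3 lower means in EWH, and their median log2 fold change was 0.01. On recovered reads edgeR and DESeq2 each called 1 of the 6, miR-7b, with 4 higher and 2 lower. Over all tested miRNAs the called share was 13.2% by edgeR and 20.8% by DESeq2. MiR-7b, from a family known in islet and pituitary cells, was among the 3 miRNAs most like miR-375-3p (r = 0.889). It read 0.609, 4.76, 0.741, 0.651, 0.991 and 1.39 rpm in control and 1.91, 2.38, 41.0, 135, 6.10 and 2.72 rpm in EWH, so EWH 4 and EWH 3 were highest for both. Its log2 fold change was 2.25 (SE 0.89; limma adjusted p = 0.163, Benjamini-Hochberg). On recovered reads it was higher in EWH at log2 4.27 by edgeR (adjusted p = 0.0308) and 4.26 by DESeq2 (adjusted p = 0.000394), both with Benjamini-Hochberg adjustment. Without EWH 3 and EWH 4 edgeR and DESeq2 each called 0 members of the list. Of all 292 miRNAs then tested edgeR called 0 and DESeq2 11, so the 0 of edgeR is not particular to the list. Leaving out the same libraries, the r of miR-7b with miR-375-3p was 0.295. The summed list had r = 0.854 and Spearman's rho = 0.811 with miR-375-3p over the 12 libraries, and r = 0.612 without EWH 3 and EWH 4. These are given as a description without a test.

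The more abundant miR-7a-5p had a control mean of 114 ± 89.4 rpm against 138 ± 111 rpm for EWH (SD, n = 6 each), and it was high in control 6 (282 rpm) as well as in EWH 3 and EWH 4 (255 and 302 rpm). MiR-217-5p, from pancreatic acinar cells, lay at 0.163 to 2.82 rpm. The miRNAs most like miR-375-3p were miR-149-5p (r = 0.892) and miR-330-3p (r = 0.891), with control means of 118 ± 17.3 and 10.7 ± 0.996 rpm against 149 ± 42.1 and 12.5 ± 3.14 rpm for EWH (SD, n = 6 each). Without EWH 3 and EWH 4 their r with miR-375-3p was 0.795 and 0.634.

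MiR-205 was most like miR-379-5p (r = 0.864), miR-411-5p (r = 0.864) and miR-376b-5p (r = 0.861), all of the imprinted Dlk1-Dio3 region. Without EWH 3 and EWH 4 these values were 0.556, 0.528 and 0.564. MiR-379-5p read 92.9 rpm in EWH 3 and 177 rpm in EWH 4 and 15.5 to 40.1 rpm in the other libraries. The list of neuron and glia markers (13 listed, 6 tested) was highest in the same libraries, summing to 875 rpm in EWH 3 and 1139 rpm in EWH 4 and to 82.6 to 206 rpm in control. It was also above every control in EWH 5 (455 rpm), EWH 6 (402 rpm) and EWH 1 (215 rpm), where miR-205 and miR-375-3p lay inside the range of the controls. Of its 6 tested members limma called 0, edgeR 3 and DESeq2 5. Over all tested miRNAs the called share was 0% by limma, 13.2% by edgeR and 20.8% by DESeq2. Without EWH 3 and EWH 4 edgeR called 0 of all 292 then tested, in this list and outside it. The part of this list in the miR-205 and miR-375-3p values was not tested.

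MiR-205 and miR-375-3p had Pearson's r = 0.766 over 12 libraries (permutation p = 0.0053, adjusted p = 0.0114 over 15 pairs) and Spearman's rho = 0.434 (permutation p = 0.163, adjusted p = 0.222). Without the libraries farthest from the median of miR-205 (EWH 4 and control 1) r was 0.302, and without EWH 3 and EWH 4 it was 0.184, so the relation rests on these libraries. Within control it was 0.128, and within EWH 0.926. MiR-203a-3p had r = −0.205 with miR-205 (permutation p = 0.516, adjusted p = 0.516; rho −0.077, permutation p = 0.817, adjusted p = 0.817) and r = −0.308 with miR-375-3p (permutation p = 0.324, adjusted p = 0.405; rho −0.476, permutation p = 0.121, adjusted p = 0.182). Without controls 1 and 4 these r were 0.115 and −0.037. Within control they were −0.398 and −0.766, and within EWH 0.088 and 0.056, each over 6 libraries. MiR-203a-5p and miR-375-3p had rho = −0.72 (permutation p = 0.0103, adjusted p = 0.0221) but r = −0.531 (permutation p = 0.095, adjusted p = 0.178), and r was −0.188 without controls 1 and 3, the libraries farthest from the median of miR-203a-5p.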

How the data were processed

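The deposited data are 1 table with 12 libraries as columns and mature miRNAs as rows. Its values are RPM (reads scaled to the library total), as made by the authors, although the deposited table is named for TPM: within a library all values were whole multiples of 1 step, giving whole reads for 100% of values within 0.01 read. Per the submitters' processing notes the build was rn6; aligner, counter and strand setting: not given in the sources used here. Of the reads, 76.4% to 80.6% fell in listed miRNAs. Groups came from the sample titles. No pair of libraries of a group agreed within sampling noise (smallest chi-square per degree of freedom 119 over 30 pairs).

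The test took miRNAs that reached 1 rpm in 6 or more libraries, and was run with limma 3.58.1 (trend, two-sided, Benjamini-Hochberg, threshold 0.05) in R 4.3.3 on log2(rpm + 1), which understates the change of low miRNAs. Single members were also tested by exact permutation. The alternatives were other filters, pseudocounts and scalings, variance models, a replicate block, libraries left out, and edgeR 4.0.16 and DESeq2 1.42.0 on recovered reads; edgeR and DESeq2 with libraries left out were added after seeing the data. Procedures were tested on simulated counts. Named were the members, up to 8 tested members of the epithelial and endocrine lists (not all are printed), and the 3 miRNAs most like each tested member. The members and lists were chosen with earlier results of these data known. The lists of smooth muscle, endothelial, erythrocyte, leukocyte, skeletal and cardiac muscle, neuron and glia, hepatocyte and adipocyte markers served as checks. Sequences are RefSeq's (GRCr8, another assembly than the data), so no coordinates are given. Figures were drawn with matplotlib 3.10.9 in Python 3.11.15.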

Additional observations from a re-analysis of the deposited data

Results flagged for a closer look

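In 5 of 12 sets of 6 values (6 members in each group), the highest library stood apart from the next by more than Dixon's 95% critical value on the rpm scale. Chance flags about 1 in 20 sets if values are normally distributed, which was not tested for the rpm values. The 4 miR-203 arms are not independent. Control 1 was the library set apart in miR-203a-3p (572 rpm), miR-203a-5p (7.52 rpm), miR-203b-3p (98.2 rpm) and miR-203b-5p (132 rpm). EWH 4 was set apart in miR-375-3p (206 rpm). On the log2(rpm + 1) scale 0 of the 12 sets passed that value.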

How the results depend on the processing

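Of 154 fits of a tested member under an alternative, 1 was called, miR-375-3p by DESeq2 (log2 fold change 3.08). With each library left out in turn, the log2 fold change ran from −0.57 to 0.24 for miR-203a-3p, −0.63 to 0.31 for miR-203b-3p and −0.61 to 0.23 for miR-203b-5p, turning sign only without control 1. It ran from 0.25 to 0.58 for miR-205, from 0.80 to 1.99 for miR-375-3p and from −0.59 to 0.0306 for the difference of miR-203a-5p. Sign also turned in edgeR without control 1 (0.0630, 0.00763 and 0.0743 for miR-203a-3p, miR-203b-3p and miR-203b-5p) and for miR-375-3p without EWH 3 and EWH 4 in edgeR (−0.12) and DESeq2 (−0.15), choices made after seeing the data. The r of miR-203a-3p with miR-205 ran from −0.35 to 0.12, and the difference in antisense share from −1.15 to 0.56 percentage points, with a library left out. The r of miR-205 with miR-375-3p was 0.504 without EWH 4 (adjusted p = 0.157, permutation) and 0.743 without EWH 3 (adjusted p = 0.0612, permutation). At a filter of 10 rpm miR-375-3p was not tested.

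Over all tested miRNAs limma's count of 0 (70 at an unadjusted p under 0.05) became 8 after quantile normalization, 40 with edgeR, 63 with DESeq2, 0 to 24 with 1 library left out (24 without EWH 2, 1 without EWH 4), and 1 without controls 5 and 6 and also without EWH 3 and EWH 4. DESeq2 called 46 without EWH 4 and 11 without EWH 3 and EWH 4; edgeR called 0 without EWH 3 and EWH 4, controls 5 and 6, control 1 or EWH 4. With the replicate number as a block limma called 0, with log2 fold changes of 0.46 for miR-205 (adjusted p = 0.267), 1.57 for miR-375-3p (0.342), −0.24 for miR-203a-3p (0.863), −0.25 for miR-203b-3p (0.875) and −0.29 for miR-203b-5p (0.832), by limma with Benjamini-Hochberg adjustment. No sign was seen that the numbers pair the samples: deviations of same-numbered libraries correlated at −0.50 to 0.31, and 0 of 6 controls correlated best with their own number. These correlations cannot exclude a pairing. Depth limits miR-203a-5p, at 0 to 185 reads, and miR-375-3p in control 1 (4 reads).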
